A study of Rattus norvegicus with 24 samples.

Results

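The erythroid genes described here are Alas2, Slc4a1, Tfrc, Hba-a1 and Hbb, chosen by their Ensembl identifiers as genes of the red cell lineage. They were chosen with earlier results of these data known, so p-values for them are not those of a set chosen independently. Rows for 4 of the 5 identifiers, out of 30560 genes counted, were used: Alas2 (ENSRNOG00000000167), Slc4a1 (ENSRNOG00000020951), Tfrc (ENSRNOG00000001766) and Hba-a1 (ENSRNOG00000047321). No row with the Hbb identifier was among the gene rows read here, so Hbb was not analysed. The count files give identifiers without names, and the symbols are those of the selection. All 4 genes passed the filter on low counts in both tissues.

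Polyadenylated RNA was sequenced from whole lung and whole liver of Sprague Dawley rat pups of WT genotype at postnatal day 6. There were 6 groups of 4 libraries: lung and liver of pups given desisobutyryl ciclesonide at 1.25 mg/kg, dexamethasone at 0.1 mg/kg, or the vehicle of 2.5% ethanol. Every pup, vehicle pups included, was nursed by its mother, was injected under the skin on 5 days running from postnatal day 1, and gave its tissue 24 hours after the last dose. Both drugs are synthetic glucocorticoids, desisobutyryl ciclesonide being the form that the body makes from ciclesonide. Their doses differed, so the drugs were not compared at a matched dose. The labels name neither litter nor sex, and the sources used here do not say whether tissue was rinsed free of blood.

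Red cells form from marrow precursors and, in late fetal and newborn rodents, also in the liver, where this activity wanes after birth. Precursors take up iron through the transferrin receptor, make heme and globin in balance, and build a membrane around the anion exchanger band 3, after which young red cells enter the blood still holding part of these RNAs. Glucocorticoids are known from cell culture and mouse work to act on the self-renewal of early erythroid progenitors. Because RNA was taken from whole tissue, fewer erythroid cells and less RNA per cell cannot be told apart, and neither can blood held in the organ and cells made in it.

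The upstream sequences of 2 members are shown because these genes responded differently in the data below: Hba-a1, a globin gene used mainly by erythroid cells, and Tfrc, used by many cell types. Both come from RefSeq on build GRCr8 and cover the 250 bases before the annotated start, 5′ to 3′. Capitals mark matches, on either strand, to TGATAA and its variant AGATAA (sites of GATA factors), to CACCC (a core read by Krüppel-like factors), to the CCAAT box, to the core of a TATA box (TATAA) and to its variant CATAAA. No matches overlap.
Hba-a1 (chr10:15842581-15842830, minus strand): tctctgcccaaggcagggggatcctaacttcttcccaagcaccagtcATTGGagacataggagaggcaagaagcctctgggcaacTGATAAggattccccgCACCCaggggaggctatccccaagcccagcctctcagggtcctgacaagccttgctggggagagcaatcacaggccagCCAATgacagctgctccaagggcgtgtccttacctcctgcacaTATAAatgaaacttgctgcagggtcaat
Tfrc (chr11:81690319-81690568, minus strand): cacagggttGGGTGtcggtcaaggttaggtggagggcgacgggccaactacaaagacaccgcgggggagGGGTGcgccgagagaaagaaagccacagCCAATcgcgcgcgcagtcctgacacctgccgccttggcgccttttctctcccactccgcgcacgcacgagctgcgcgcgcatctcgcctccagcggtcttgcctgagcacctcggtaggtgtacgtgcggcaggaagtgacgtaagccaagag

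In the Hba-a1 window TGATAA began at base -165, CACCC at -149, CCAAT at -71 with a reverse copy at -203, and TATAA at -28, counted from the annotated start. The Tfrc window held CACCC in reverse at -241 and -181 and CCAAT at -153. Of 33469 rat promoter windows of this length, 7.97% held TGATAA, 10.3% held AGATAA, 49.2% held CACCC, 34.0% held CCAAT, 24.0% held TATAA and 11.4% held CATAAA. The RefSeq window for Alas2 lies 4800 bases inside the gene's outer end and is not shown, and Slc4a1 had no entry. RefSeq also lists Hba-a2, whose upstream window matched that of Hba-a1 at 96.4% of positions, and Hba-a3, whose window matched at 24.4% (compared without gaps). Only these windows were compared, and not the transcripts. Reads that fit more than 1 alpha globin gene may have gone uncounted or to another of them, so Hba-a1 counts are uncertain as a measure of alpha globin.

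Libraries held 15397992 to 27881158 gene counts, and the smallest count of any member in any library was 55 (Hba-a1 in a dexamethasone liver). The 4 genes together took 0.0122% to 0.107% of a library's gene counts. Lung dexamethasone replicates 3 and 4 had 19223 and 19404 genes detected, against 18473 and 18390 in replicates 1 and 2. Chi-square per degree of freedom was 59.2 to 107 between these pairs of replicates and 53.8 and 37.2 within them, and results are given without replicates 3 and 4 where a call changed. By the same measure liver dexamethasone replicate 2 differed from its group (77.9 to 121, against 32.6 to 44.7 among the other 3), as did liver desisobutyryl ciclesonide replicate 3 (110.0 to 130.4, against 26.1 to 67.3). Leaving out either of these libraries changed no call of a member. The deposited files number the 8 desisobutyryl ciclesonide libraries in a series of their own, so library series and this drug cannot be told apart. In these libraries 0.801% to 1.40% of entries were unaligned, against 1.88% to 3.50% in the dexamethasone libraries and 2.04% to 3.32% in the vehicle libraries.

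Dexamethasone lowered 3 of the 4 genes in liver, where it lowered 24.9% of all genes tested. In lung it lowered 2 (28.7% of all genes) and raised 1 (26.9%). In liver Alas2, Slc4a1 and Hba-a1 fell 6.08-fold, 10.1-fold and 13.6-fold, and Tfrc did not pass the test. In lung Hba-a1 fell 3.73-fold and Slc4a1 2.39-fold, Tfrc rose 2.86-fold, and Alas2 did not pass. The lung call of Slc4a1 was not settled, being lost in 5 of 8 fits that left out 1 library. Desisobutyryl ciclesonide changed none of the 4 genes past the threshold in either tissue (edgeR quasi-likelihood test). Before adjustment, Slc4a1 in lung and Hba-a1 in liver had p under 0.05 (0.0167 and 0.00447).

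These counts are read against those of all genes. In lung dexamethasone against vehicle, 3 of 4 members were called where 55.6% of all genes tested were: 1 higher (26.9% of all genes) and 2 lower (28.7%). Without lung dexamethasone replicates 3 and 4, Tfrc and Hba-a1 were still called and Slc4a1 was not. The median log2 change of the 4 was -0.87, against -0.01 over all genes tested. In liver 3 of 4 were called with dexamethasone, where 47.5% of all genes were, and all 3 were lower (24.9% of all genes), with a median log2 change of -2.97 against -0.02. For desisobutyryl ciclesonide against vehicle, 0 of 4 were called, where 24.1% of genes were in lung and 4.52% in liver. The medians of the 4 were 0.40 in lung and 0.04 in liver, against -0.01 over all genes in each tissue.

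**Figure D1:**
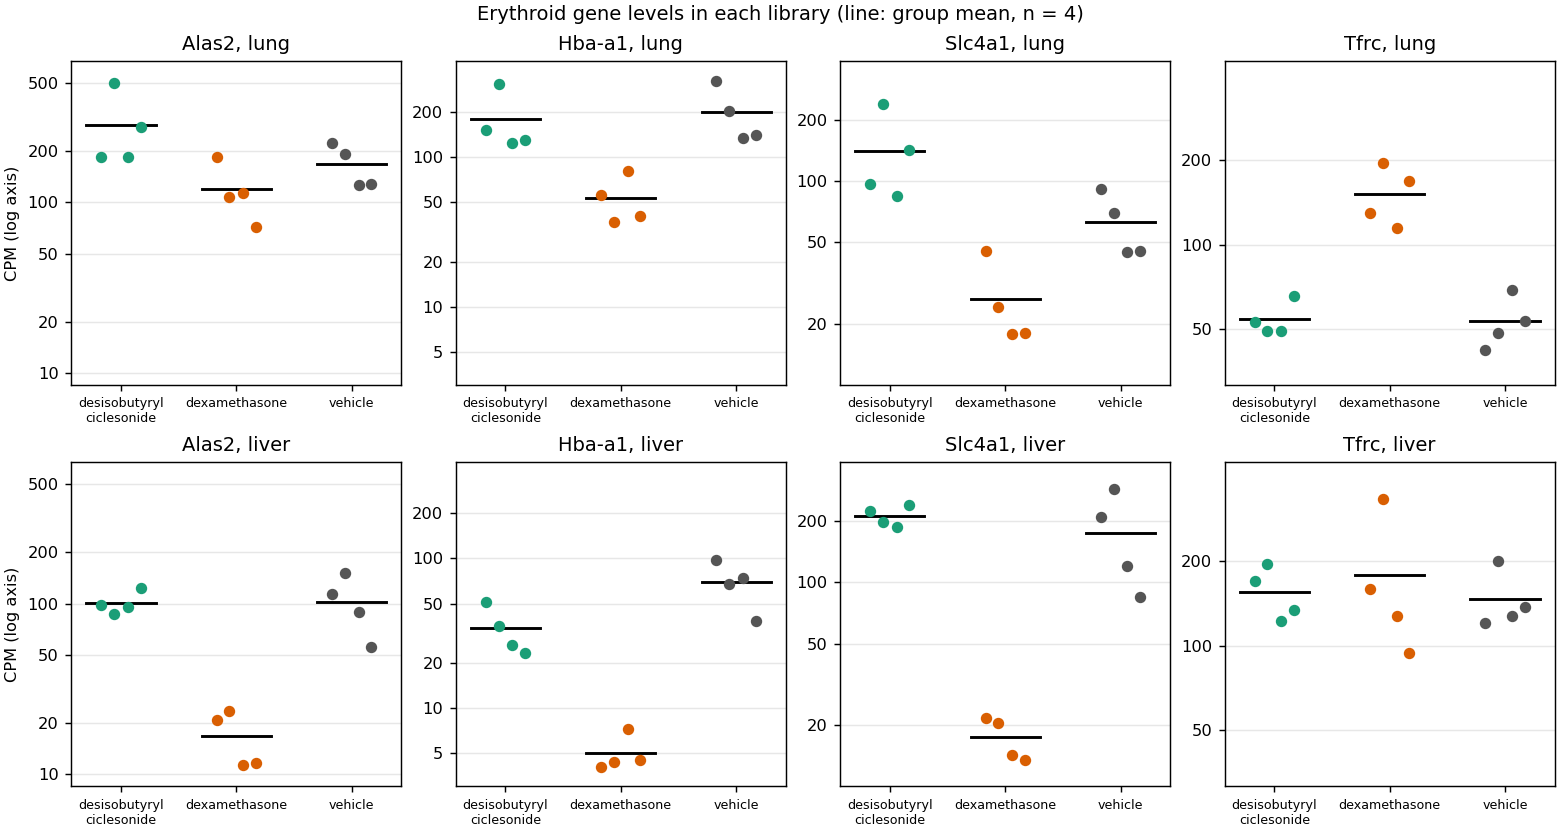
Level of each gene in each library, in CPM (log axis), for lung (top) and liver (bottom), with 1 point per library and a line at the mean of 4. In liver the dexamethasone points of Alas2, Hba-a1 and Slc4a1 lie below all others, at no more than 23.6 CPM, while in lung the dexamethasone points of Tfrc lie above all others, the lowest of them at 115 CPM.

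Tfrc encodes transferrin receptor 1, which brings iron-loaded transferrin into the cell, and is most abundant in erythroid precursors but used by dividing cells in general. In CPM, counts scaled to a common library size with TMM factors, desisobutyryl ciclesonide lungs held 53.2, 49.1, 49.1 and 65.6 CPM of Tfrc (values of replicates 1 to 4, as for all groups). Dexamethasone lungs held 129, 196, 115 and 169 CPM, and vehicle lungs held 42.2, 48.3, 69.2 and 53.4 CPM. All 4 dexamethasone lungs were above every other lung library, with group means of 54.3 ± 7.82 CPM for desisobutyryl ciclesonide, 152 ± 37.1 CPM for dexamethasone and 53.3 ± 11.6 CPM for vehicle (SD, n = 4 each). The log2 change with dexamethasone was 1.51 (SE 0.19, adjusted p = 1.93e-05), against 0.03 (SE 0.18, adjusted p = 0.936) with desisobutyryl ciclesonide, whose 95% interval ran from -0.37 to 0.42. Between the drugs the log2 difference was -1.49 (SE 0.19, adjusted p = 4.38e-05).

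In liver Tfrc stood at 170.0, 196, 123 and 134 CPM with desisobutyryl ciclesonide. It stood at 159, 335, 128 and 94.5 CPM with dexamethasone and at 121, 200.3, 127 and 138 CPM with vehicle. The 3 groups overlapped throughout, and dexamethasone replicate 2 was the highest library. Group means were 156 ± 33.6 CPM for desisobutyryl ciclesonide, 179 ± 107 CPM for dexamethasone and 146 ± 36.6 CPM for vehicle (SD, n = 4 each), and no neighbours in this order differed beyond their spread. Dexamethasone gave a log2 change of 0.29 (SE 0.33, adjusted p = 0.497), with a 95% interval from -0.43 to 1.01; it was -0.21 without dexamethasone replicate 2 and -0.0056 on library size alone. Desisobutyryl ciclesonide gave 0.09 (SE 0.33, adjusted p = 0.912), with an interval from -0.63 to 0.81. The response to dexamethasone differed between the tissues, with a lung minus liver log2 difference of 1.23 (SE 0.40, adjusted p = 0.0185). This call was lost by a narrow margin without liver vehicle replicate 2 (1.04, adjusted p = 0.0502).

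Alas2 encodes the erythroid form of 5-aminolevulinate synthase, the first and rate-limiting enzyme of heme synthesis in red cell precursors. Desisobutyryl ciclesonide livers held 97.7, 87.4, 95.3 and 123 CPM of Alas2. Dexamethasone livers held 20.8, 23.6, 11.4 and 11.7 CPM, against 114, 150.1, 88.9 and 55.7 CPM in vehicle livers. The highest dexamethasone liver was below the lowest liver of each other group, and desisobutyryl ciclesonide livers lay within the range of vehicle. Group means were 101 ± 15.5 CPM for desisobutyryl ciclesonide, 16.9 ± 6.27 CPM for dexamethasone and 102 ± 39.9 CPM for vehicle (SD, n = 4 each). The log2 change in liver was -2.60 with dexamethasone (SE 0.31, adjusted p = 2.77e-05) and -0.02 with desisobutyryl ciclesonide (SE 0.29, adjusted p = 0.983). That last estimate had a 95% interval from -0.65 to 0.61 and took either sign across alternatives, for example 0.09 with replicate number as a block.

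In lung Alas2 stood at 185, 498, 183 and 277 CPM with desisobutyryl ciclesonide, replicate 2 being the highest lung library. It stood at 185, 107, 113 and 72.1 CPM with dexamethasone, against 223, 191, 126 and 128 CPM with vehicle. Groups overlapped in each pair. By group mean desisobutyryl ciclesonide was highest (286 ± 148 CPM), dexamethasone lowest (119 ± 47.3 CPM) and vehicle between them (167 ± 48.1 CPM; SD, n = 4 each), and neither neighbour in this order differed beyond the spread. Neither drug was called against vehicle, at log2 changes of -0.48 for dexamethasone (SE 0.37, adjusted p = 0.293) and 0.78 for desisobutyryl ciclesonide (SE 0.37, adjusted p = 0.157). Against each other the drugs differed, desisobutyryl ciclesonide being higher by 1.26 (SE 0.38, adjusted p = 0.0166). Without lung dexamethasone replicates 3 and 4 this difference was 0.96 and no longer called (adjusted p = 0.120). Without desisobutyryl ciclesonide replicate 2 it was 0.85 and still called (adjusted p = 0.0439). The dexamethasone response was less negative in lung than in liver by 2.12 (SE 0.50, adjusted p = 0.00223).

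Hba-a1 encodes an alpha globin chain, which pairs with beta globin in hemoglobin. In desisobutyryl ciclesonide livers it stood at 51.0, 35.3, 26.5 and 23.6 CPM. In dexamethasone livers it stood at 4.05, 4.37, 7.28 and 4.51 CPM, against 98.3, 67.6, 73.7 and 38.2 CPM in vehicle livers. Dexamethasone livers lay below all others, and desisobutyryl ciclesonide livers lay in the lower part of the vehicle range and beneath it. Group means were 34.1 ± 12.3 CPM for desisobutyryl ciclesonide, 5.05 ± 1.50 CPM for dexamethasone and 69.5 ± 24.7 CPM for vehicle (SD, n = 4 each). The log2 change was -3.76 with dexamethasone (SE 0.34, adjusted p = 3.66e-06) and -1.03 with desisobutyryl ciclesonide (SE 0.30, adjusted p = 0.0733), with a 95% interval from -1.67 to -0.38. The estimate for desisobutyryl ciclesonide passed with DESeq2 (adjusted p = 0.0133) and without liver vehicle replicate 4 or liver desisobutyryl ciclesonide replicate 1 (adjusted p = 0.0288 and 0.0301), so its side of the threshold was not settled. Reads aligned to more than 1 place made up 2.43% to 2.84% of entries in dexamethasone livers, against 3.03% to 3.18% in vehicle livers, and their part in the fall of Hba-a1 was not tested.

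In lung Hba-a1 stood at 152, 310.4, 124 and 129.6 CPM with desisobutyryl ciclesonide. It stood at 56.5, 37.0, 81.0 and 40.5 CPM with dexamethasone and at 325, 203, 134 and 140.5 CPM with vehicle. Dexamethasone lungs lay below every other lung library, while the other groups overlapped. Group means were 179 ± 88.4 CPM for desisobutyryl ciclesonide, 53.7 ± 20.04 CPM for dexamethasone and 201 ± 88.4 CPM for vehicle (SD, n = 4 each). Dexamethasone gave a log2 change of -1.90 (SE 0.40, adjusted p = 0.00205), and desisobutyryl ciclesonide gave -0.16 (SE 0.39, adjusted p = 0.801), with an interval from -1.02 to 0.69. The drugs differed by 1.74 in lung (SE 0.40, adjusted p = 0.00433). The lung response to dexamethasone was less negative than the liver response by 1.86 (SE 0.52, adjusted p = 0.00871).

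Slc4a1 encodes band 3, the anion exchanger that is the main integral protein of the red cell membrane. Desisobutyryl ciclesonide livers held 223, 198, 187 and 238 CPM of Slc4a1. Dexamethasone livers held 21.5, 20.5, 14.2 and 13.4 CPM, against 208, 287, 119.5 and 84.8 CPM in vehicle livers. As for Alas2, dexamethasone livers were separate from the rest, and desisobutyryl ciclesonide livers lay within the vehicle range. Group means were 212 ± 23.4 CPM for desisobutyryl ciclesonide, 17.4 ± 4.21 CPM for dexamethasone and 175 ± 91.1 CPM for vehicle (SD, n = 4 each). The log2 change was -3.33 with dexamethasone (SE 0.34, adjusted p = 7.66e-06) and 0.28 with desisobutyryl ciclesonide (SE 0.31, adjusted p = 0.655), with an interval from -0.39 to 0.94.

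In lung Slc4a1 stood at 96.8, 239.9, 84.6 and 142 CPM with desisobutyryl ciclesonide. It stood at 45.2, 24.1, 17.8 and 18.0 CPM with dexamethasone and at 91.6, 69.7, 44.8 and 45.3 CPM with vehicle. The highest dexamethasone lung (replicate 1) was just above the lowest vehicle lung (44.8 CPM), and the desisobutyryl ciclesonide range began inside that of vehicle and ran above it. Group means were 141 ± 70.5 CPM for desisobutyryl ciclesonide, 26.3 ± 13.0 CPM for dexamethasone and 62.9 ± 22.4 CPM for vehicle (SD, n = 4 each). The log2 change with dexamethasone was -1.26 (SE 0.42, adjusted p = 0.0239). That call was lost without lung vehicle replicate 1 or 2 or without lung dexamethasone replicate 2, 3 or 4, left out singly (adjusted p between 0.0554 and 0.0769), and without dexamethasone replicates 3 and 4 together (-0.84, adjusted p = 0.194). With desisobutyryl ciclesonide the log2 change was 1.16 (SE 0.41, adjusted p = 0.0629), with an interval from 0.26 to 2.07; DESeq2 called it (adjusted p = 0.0274). The lung response to dexamethasone was less negative than the liver response by 2.08 (SE 0.54, adjusted p = 0.00475).

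**Figure D2:**
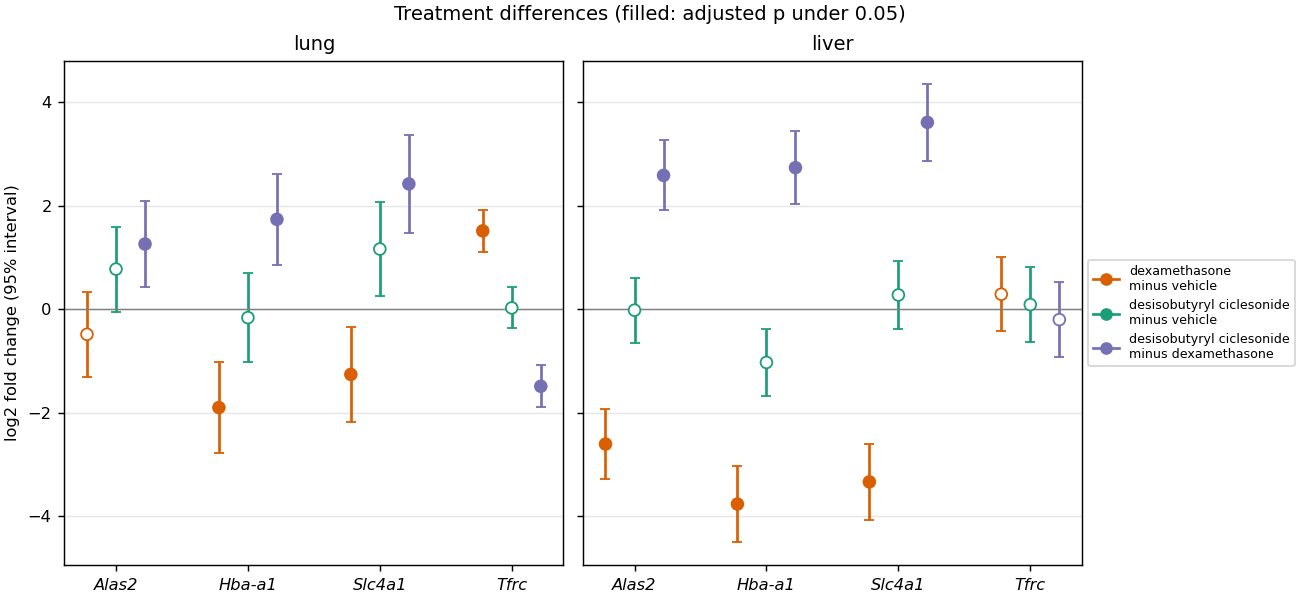
Log2 fold change of each gene in lung (left) and liver (right) for the 3 treatment comparisons, with 95% intervals from edgeR and filled points where the adjusted p was under 0.05. The 3 liver estimates for dexamethasone against vehicle lie between -3.76 and -2.60 for Alas2, Hba-a1 and Slc4a1, and the lung Tfrc estimate lies at 1.51.

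Set side by side, the drug groups held the erythroid genes at different levels, except for Tfrc in liver. In lung all 4 genes differed between them (49.5% of all genes tested did, in either direction). Alas2, Slc4a1 and Hba-a1 were higher with desisobutyryl ciclesonide than with dexamethasone, and Tfrc was lower. The lung call of Alas2 was lost without lung dexamethasone replicates 3 and 4 (0.96, adjusted p = 0.120). The median log2 difference was 1.50 over the 4 and 0.02 over all genes. In liver 3 of 4 differed (46.3% of all genes), all 3 higher with desisobutyryl ciclesonide (23.8%), with medians of 2.66 and 0.00. The largest differences were those of Slc4a1, 3.61 in liver (SE 0.34, adjusted p = 5.43e-06) and 2.42 in lung (SE 0.43, adjusted p = 0.000912). In liver Alas2 differed by 2.59 (SE 0.31, adjusted p = 3.51e-05) and Hba-a1 by 2.74 (SE 0.33, adjusted p = 3.54e-05). Tfrc in liver differed by -0.20 (SE 0.33, adjusted p = 0.646), with an interval from -0.92 to 0.52, and by 0.06 on library size alone. These comparisons share the dexamethasone libraries with those against vehicle. In them the drug cannot be told apart from its dose or from the library series.

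The lung minus liver difference in the dexamethasone response was called for 4 of 4 genes and was positive in each, where 34.7% of all genes tested were called and 16.9% were positive. The median was 1.97, against -0.02 over all genes. The positive sign covers different patterns. Slc4a1 and Hba-a1 had smaller log2 decreases in lung than in liver, although the lung call of Slc4a1 was not settled. Alas2 fell in liver and was not called in lung (-0.48, adjusted p = 0.293), whereas Tfrc rose in lung. For desisobutyryl ciclesonide 0 of 4 differences were called (4.31% of all genes were), with estimates from -0.06 for Tfrc to 0.89 for Slc4a1 (adjusted p from 0.383 to 0.963).

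In vehicle pups the tissues were compared in 1 fit over all 24 libraries. Slc4a1 was lower in lung than in liver, at a log2 difference of -2.76 (SE 0.40, adjusted p = 2.25e-06). Tfrc was lower in lung as well, at -2.74 (SE 0.30) with an adjusted p of 2.64e-08. For Alas2 the difference was -0.57 (SE 0.35, adjusted p = 0.144) and for Hba-a1 0.25 (SE 0.36, adjusted p = 0.542). Thus 2 of 4 were called, both lower in lung, where 70.8% of all genes were called and 31.1% were lower. These levels depend on the scaling, since on library size alone the median of all genes moved to 1.42 from 0.18. The estimates were then -1.53 for Slc4a1 and -1.49 for Tfrc, still called, 0.66 for Alas2, the opposite sign, and 1.49 for Hba-a1, which became a call (adjusted p = 0.00121).

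Ratios of counts within a library do not depend on scaling between libraries. The ratio of each gene to Slc4a1 was therefore compared, a choice made after the data were seen. A ratio shows unequal change and not which gene moved, and ratios to 1 gene share its error. With 4 libraries against 4 the smallest two-sided exact permutation p is 0.0286, which after adjustment over 18 tests became 0.0429 wherever the groups did not overlap. The adjusted value depends on how many of the 18 reached that floor. As all 18 share Slc4a1 and were chosen late, their p-values describe separation of the groups and are not independent tests. How often other genes separate the groups by such a ratio was not tested, so separation is not shown to be particular to these genes.

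The Alas2 to Slc4a1 ratio kept the treatment groups apart in both tissues. In liver its log2 value was -1.07 ± 0.13 with desisobutyryl ciclesonide, -0.09 ± 0.22 with dexamethasone and -0.71 ± 0.24 with vehicle (SD, n = 4 each). In lung it was 1.02 ± 0.08 with desisobutyryl ciclesonide, 2.21 ± 0.31 with dexamethasone and 1.43 ± 0.10 with vehicle. None of the groups overlapped within a tissue, although the desisobutyryl ciclesonide and vehicle livers nearest each other stood at -0.95 and -0.94. Relative to Slc4a1, Alas2 was thus higher with dexamethasone than with vehicle, by 0.62 in liver and 0.78 in lung, and lower with desisobutyryl ciclesonide than with vehicle, by -0.37 in liver and -0.41 in lung (exact permutation p = 0.0286 and adjusted p = 0.0429 for each of the 4).

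The Hba-a1 to Slc4a1 ratio was lower with desisobutyryl ciclesonide than with vehicle in both tissues. Its log2 value in lung was 0.36 ± 0.35 with desisobutyryl ciclesonide and 1.64 ± 0.13 with vehicle, and in liver -2.69 ± 0.51 with desisobutyryl ciclesonide and -1.25 ± 0.59 with vehicle (SD, n = 4 each). The differences of -1.28 in lung and -1.44 in liver had an exact permutation p of 0.0286 (adjusted p = 0.0429), and the values did not overlap, the nearest livers being -2.13 with desisobutyryl ciclesonide and -2.09 with vehicle. Reads aligned to more than 1 place, which genes with similar copies can yield, also differed here. They made up 3.39% to 4.59% of entries in desisobutyryl ciclesonide lungs against 2.75% to 3.17% in vehicle lungs, and 3.34% to 4.02% in desisobutyryl ciclesonide livers against 3.03% to 3.18% in vehicle livers. Their part in the Hba-a1 ratio was not tested. With dexamethasone the ratio was 1.07 ± 0.82 in lung and -1.78 ± 0.66 in liver, overlapping vehicle in both (differences of -0.57 and -0.53, exact permutation p = 0.229 and 0.257).

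The ratio of Tfrc to Slc4a1 rose with dexamethasone in both tissues. In liver it was 3.23 ± 0.56 with dexamethasone and -0.13 ± 0.66 with vehicle, and in lung 2.61 ± 0.76 with dexamethasone and -0.20 ± 0.78 with vehicle (SD, n = 4 each). The differences were 3.36 and 2.81 (exact permutation p = 0.0286, adjusted p = 0.0429 for each). In liver Slc4a1 fell while Tfrc itself was not called, and in lung Tfrc rose. Those changes were known when the ratio was chosen, so its separation of dexamethasone from vehicle is no further evidence. Desisobutyryl ciclesonide gave -0.46 ± 0.35 in liver and -1.26 ± 0.70 in lung, overlapping vehicle in each (differences of -0.33 and -1.07, exact permutation p = 0.429 and 0.114).

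**Figure D3:**
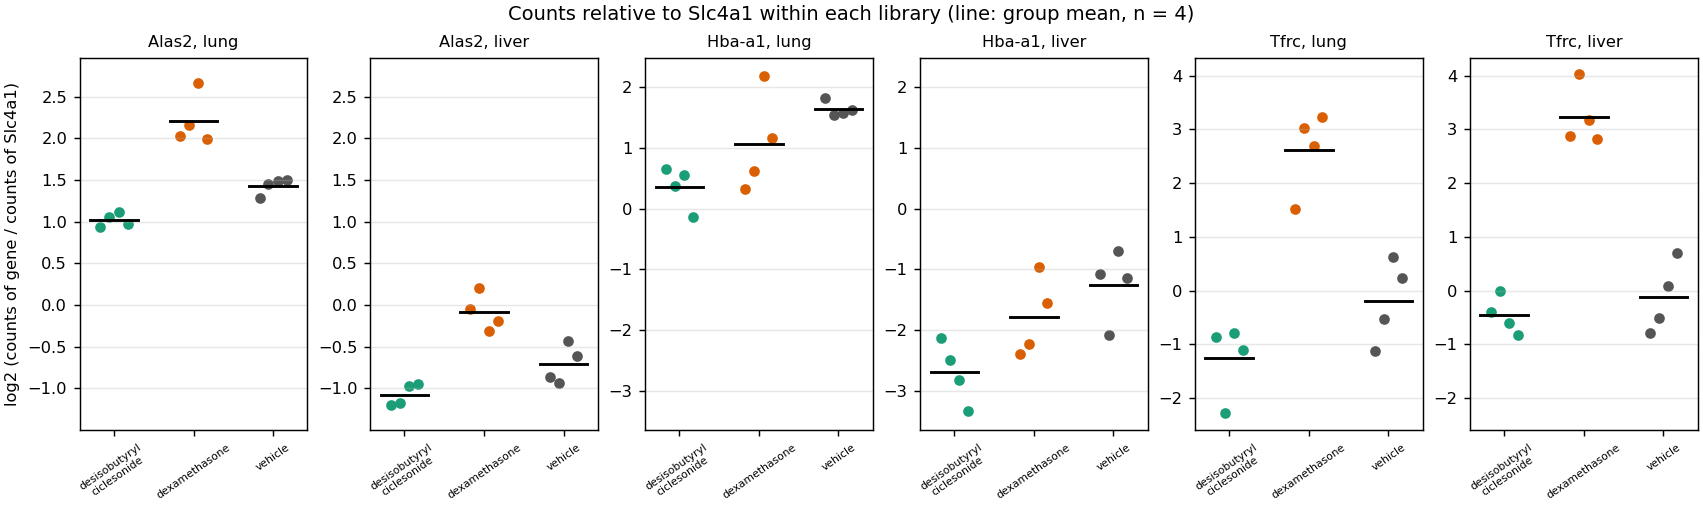
Log2 ratio of the counts of Alas2, Hba-a1 and Tfrc to those of Slc4a1 in each library of lung and liver, with a line at the mean of 4. The Tfrc ratio lies between 2.82 and 4.03 in dexamethasone livers and between -0.79 and 0.70 in vehicle livers, and the Alas2 ratio separates all 3 treatments in each tissue.

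Within groups, some members varied together from library to library. Deviations of log2 CPM from the group mean were correlated over the 12 libraries of a tissue, with exact permutation of libraries within treatments and adjustment over 12 relations. Alas2 and Slc4a1 deviated together in lung (Pearson r = 0.948, p = 0.000940, adjusted p = 0.00998; Spearman rho = 0.867, p = 0.00326, adjusted p = 0.0171) and in liver (r = 0.919, p = 0.00166, adjusted p = 0.00998; rho = 0.888, p = 0.00304, adjusted p = 0.0171), by exact permutation. Without the 2 libraries farthest from the median in Alas2 alone, r was 0.887 and 0.853. In lung Tfrc deviated against Hba-a1 (r = -0.767, exact permutation p = 0.0108, adjusted p = 0.0431, and rho = -0.825, p = 0.00427, adjusted p = 0.0171). There r was -0.727 without the 2 libraries farthest from the median in Tfrc alone. In liver that relation was near 0 (r = -0.02, exact permutation p = 0.941; rho = 0.05, p = 0.883). Hba-a1 was related to Slc4a1 and Alas2 in lung with r = 0.615 and 0.741 (exact permutation adjusted p = 0.138 and 0.0577) and in liver with r = 0.299 and 0.0862 (adjusted p = 0.642 and 0.893), so none of these 4 passed. For Tfrc with Alas2 and Slc4a1, r was -0.436 and -0.304 in lung and 0.571 and 0.452 in liver. These did not pass either (exact permutation adjusted p from 0.202 to 0.514).

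**Figure D4:**
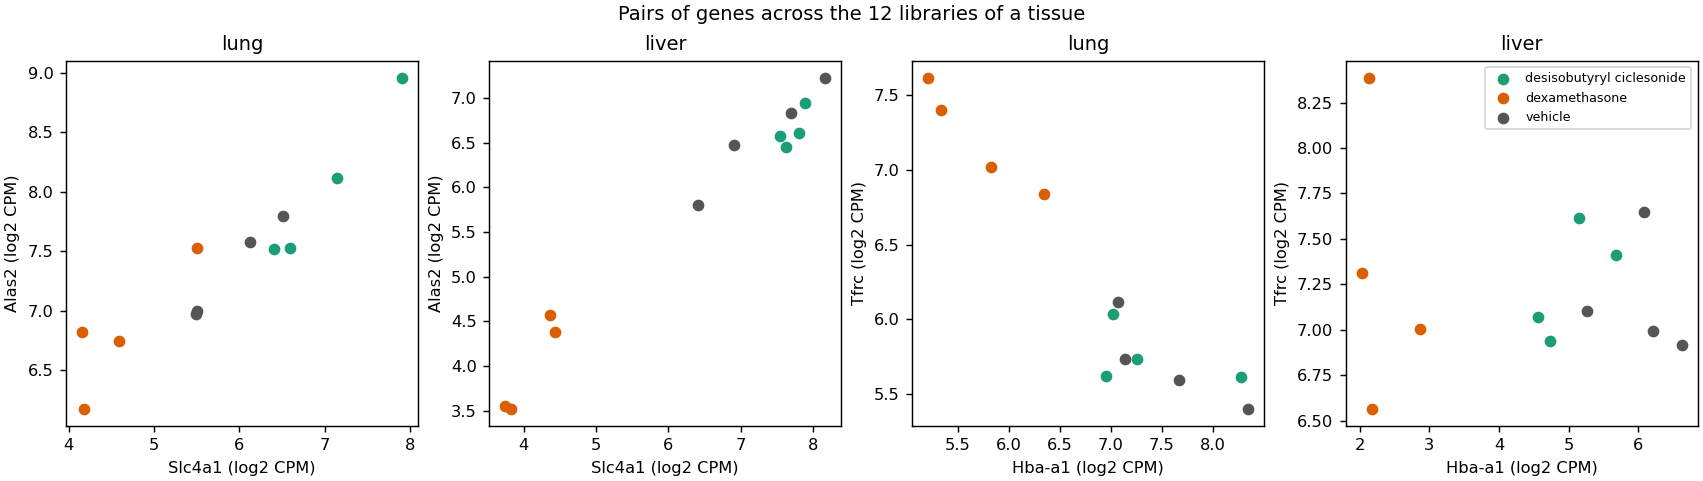
Log2 CPM of Alas2 against Slc4a1 (left pair of panels) and of Tfrc against Hba-a1 (right pair) in the 12 libraries of each tissue, coloured by treatment. Alas2 rises with Slc4a1 in both tissues, and in lung the dexamethasone libraries lie at high Tfrc and low Hba-a1.

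Libraries of lung and liver with the same treatment and number deviated together over all genes, although the labels do not say that a number marks a pup. For single members the relation across tissues did not pass the test. Over 12 such pairs r was 0.557 for Slc4a1 (exact permutation p = 0.0527, adjusted p = 0.180; rho = 0.664, p = 0.0153, adjusted p = 0.0613), 0.585 for Hba-a1 (p = 0.0901, adjusted p = 0.180; rho = 0.448, p = 0.209), 0.404 for Alas2 (p = 0.190; rho = 0.364, p = 0.270) and 0.218 for Tfrc (p = 0.669; rho = 0.182, p = 0.625). None passed after adjustment over 4 relations. Without the 2 pairs farthest from the median in lung alone, r was 0.730, 0.541, 0.575 and -0.197.

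Genes with the most similar pattern were sought by Pearson correlation, over the 12 libraries of a tissue, with the mean of the standardised log2 CPM of Alas2, Slc4a1 and Hba-a1. This is a description of shared pattern, as all genes share the treatments and libraries. In liver the closest of 11395 genes was ENSRNOG00000003031 (r = 0.991), at mean levels of 13.0 CPM with desisobutyryl ciclesonide, 1.90 CPM with dexamethasone and 15.5 CPM with vehicle. In lung the closest of 13622 genes was ENSRNOG00000020994 (r = 0.987), at 161 CPM with desisobutyryl ciclesonide, 71.5 CPM with dexamethasone and 131 CPM with vehicle. A correlation above 0.9 was reached by 767 genes in liver and by 54 in lung. Tfrc correlated with the same mean at -0.84 in lung and at -0.0082 in liver.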

How the data were processed

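RNA-seq counts of 24 libraries (6 groups of 4, by the sample titles) were used. Per the labels' protocols, libraries were directional and poly(A)-selected. The deposited counts are whole and unnormalised, 1 per gene. Trimming, alignment and counting by the authors used cutadapt, HISAT2 and HTSeq on mRatBN7.2, tools and build being those listed in the submitters' processing notes. Their settings, strand use included, are not given in the sources. The 5 summary rows (16.8% to 31.8% of entries) stayed out of library sizes and tests. Members and lists were chosen with earlier results of these data known.

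Genes passing edgeR's default filter were TMM-scaled and fitted by tissue, 12 libraries with 1 mean per treatment (edgeR 4.0.16, R 4.3.3, robust quasi-likelihood F-test, Benjamini-Hochberg over all genes, threshold 0.05). SE is the log2 change over the root of F. All adjusted p-values are from this test unless another is named. Tissue contrasts used all 24 libraries; the difference in response used genes passing the filter in both tissues. CPM are on TMM-scaled sizes, computed per tissue. Log2 ratios added 0.5 counts. Permutation tests were exact and two-sided (Python 3.11.15). The planned ratio to Hbb was not run. The planned test of the members' summed share was not made, since the members were chosen with results known, and the share is a description. The same choice limits the p-values printed for single members, their ratios and their correlations. The planned pathway and cell marker lists could not be applied without gene names. The code was tested on simulated data.

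Same-numbered lung and liver libraries of a treatment deviated together in all 12 pairs (r from 0.114 to 0.316 over 13245 genes), so numbers were taken to pair tissues. The tissue contrasts printed do not use this pairing; a fit that does changed no member's call in them. Within a tissue, r took either sign over the 24 same-numbered pairs of treatments (from -0.259 to 0.362), so numbers were not taken to pair treatments. All 36 replicate pairs differed by more than counting noise (lowest chi-square over its degrees of freedom 11.6). The labels name no litters, so p-values cover only the spread among libraries, part of which may be technical. The rule for similar genes took the 2 highest correlations per tissue among genes of at least 2 CPM; the top 1 is printed, as identifiers carry no name. Alternatives were other scalings, no filter, DESeq2 1.42.0, limma-voom (limma 3.58.1), 2 groups only, replicate block and leaving out libraries.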

Additional observations from a re-analysis of the deposited data

Results flagged for a closer look

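In 2 of 48 sets of 4 values checked, 1 end of the set lay far from the other 3, where chance gives about 1 in 20. The sets were CPM, ratios to Slc4a1 and summed shares of the same libraries. They are not independent, so the 2 flagged values are described only. In both the highest value was the far one. Hba-a1 in liver dexamethasone replicate 3 stood at 7.28 CPM, against 4.05 to 4.51 CPM in the other 3, and the fall in liver was as large without it (log2 change -4.00). Hba-a1 in lung desisobutyryl ciclesonide replicate 2 stood at 310.4 CPM, against 124 to 152 CPM in the other 3. That library also had the highest Alas2 (498 CPM) and Slc4a1 (239.9 CPM) of all lungs, and 4.59% of its entries aligned to more than 1 place, the highest share of all libraries.

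The dexamethasone response differed between lung and liver for 4 of 4 genes by the test of the difference itself. Of all genes tested, 34.7% were called in this contrast and 16.9% were called with a positive difference. The lung minus liver log2 difference was 2.12 for Alas2, 2.08 for Slc4a1, 1.86 for Hba-a1 and 1.23 for Tfrc. For Alas2, Slc4a1 and Hba-a1 it stayed called without each of the 16 libraries in turn (lowest values 1.87, 1.73 and 1.64). For Tfrc the call was lost in 1 of these 16 fits (adjusted p = 0.0502).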

How the results depend on the processing

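Of 288 values of single genes under other scalings, filters, tools or fits, 275 kept their direction and side of the threshold, and of 352 with 1 library left out, 325 did. The dexamethasone falls of Alas2, Slc4a1 and Hba-a1 in liver and the rise of Tfrc in lung stayed called in all of these. Calls under desisobutyryl ciclesonide were less settled: DESeq2 called the lung change of Slc4a1 (1.18, adjusted p = 0.0274) and the liver change of Hba-a1 (-1.02, adjusted p = 0.0133). A fit with replicate number as a block called both too (1.19 and -1.003, adjusted p = 0.0295 and 0.0376), turned the sign of liver Alas2 (0.090) and changed no other call of a member. Within a tissue the numbers were not taken to pair treatments, so that fit carries no extra weight. Without lung dexamethasone replicates 3 and 4, chosen after the data were seen, 2 calls were lost: Slc4a1 against vehicle (-0.84) and Alas2 between the drugs (0.96). Library size alone shifted the median of all genes and turned uncalled values: Tfrc with desisobutyryl ciclesonide in lung (-0.072), Tfrc with dexamethasone in liver (-0.0056), Tfrc between the drugs in liver (0.056) and Alas2 between vehicle tissues (0.66), while Hba-a1 between vehicle tissues became a call (1.49). With limma-voom liver Alas2 under desisobutyryl ciclesonide was 0.058. The members' share of all entries, in place of gene counts, put desisobutyryl ciclesonide livers above vehicle by 0.00144 percentage points.

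With 1 library left out, the lung change of Slc4a1 with dexamethasone ranged from -1.66 to -1.01. Against vehicle in lung, desisobutyryl ciclesonide gave -0.078 to 0.17 for Tfrc and -0.57 to 0.18 for Hba-a1. In liver it gave -0.22 to 0.23 for Alas2, -0.039 to 0.28 for Tfrc and -1.29 to -0.81 for Hba-a1. Liver Tfrc ranged from -0.21 to 0.50 with dexamethasone against vehicle and from -0.41 to 0.30 between the drugs. The lung minus liver difference for Tfrc ranged from 1.02 to 1.71 with dexamethasone and from -0.26 to 0.16 with desisobutyryl ciclesonide, and Hba-a1 between vehicle tissues from -0.17 to 0.47. The members' share with desisobutyryl ciclesonide minus vehicle ranged from -6.14e-05 to 0.0211 percentage points in lung and from -0.00714 to 0.00740 in liver. Depth set no limit on the called members, the lowest count being 55, but 4 libraries a group leave wide intervals.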
